A study of Mus musculus with 5 samples.

Results

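The subject is a set of 40 genes of mitosis, followed on 5 one-colour microarrays of organoids cultured from the mouse stomach. The genes were chosen by name as known parts of the mitotic machinery: regulators of mitotic entry, the chromosomal passenger complex, the spindle checkpoint, kinetochores, motors and spindle proteins, cytokinesis, mitotic exit and chromosome structure. Earlier results of these data were known when they were chosen, so the contrasts with all genes below are descriptive. All 40 of 40 were on the array and were well above background on every array, among 17583 genes tested. The control was an organoid line from Trp53flox/flox mice, in which the Trp53 gene is flanked by loxP sites, transduced with the vector pLKO.1 and a hairpin against luciferase (shLuc), and taken before subcutaneous inoculation. The other 4 samples were organoids derived from subcutaneous tumours, all with Trp53 loss: a pair of samples with hairpins against Cdh1 (shCdh1 #1 and shCdh1 #2, called hairpins 1 and 2 here), 1 with Apc580D (called Apc) and 1 with Pik3caH1047R (called Pik3ca). All samples came from stomach. All were grown in serum-free medium with EGF, R-spondin1, Noggin, Y27632, which blocks the kinase ROCK, Jagged-1 and CHIR-99021, which blocks the kinase GSK3. The mouse ages, how Trp53 was lost and whether the tumours grew from the control line are not given in the sources used here. Each sample is 1 line on 1 array, so only the shCdh1 group has replicates (n = 2), nothing in the labels says that these came from separate animals, and p-values then measure only the spread between these samples, which may be technical.

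Mitosis separates the copied chromosomes into daughter cells. Cdk1 bound to B-type cyclins starts it, kinetochores tie chromosomes to spindle microtubules, the spindle checkpoint delays anaphase until all are attached, and the anaphase-promoting complex then destroys cyclin B and securin. Most of these genes are transcribed late in the cell cycle, through elements bound by the MuvB-based complexes DREAM, which represses, and B-Myb with FoxM1, which activate, so that their RNA is widely used as a measure of dividing cells. p53 is known to repress many of them through its target Cdkn1a, which encodes the Cdk inhibitor p21, and DREAM. In stomach epithelium, dividing cells lie mainly in the isthmus of the gland.

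The element most often shared by such promoters is the cell cycle genes homology region, CHR, with the letters TTTGAA, often near a CCAAT box, the letters bound by NF-Y. RefSeq promoters (build GRCm38.p6, 250 bases before to 50 bases after each start site) were matched by symbol for 32 of the 40 genes, in 34 promoters, and both strands were searched. TTTGAA occurred in 25 of the 34 promoters (73.5%), against 16% of 21263 promoters of protein-coding genes and 17.9% of all 32851. CCAAT, which can overlap TTTGAA by at most 1 letter, occurred in 26 (76.5%), against 38.2% and 37.4%. At least 2 CCAAT occurred in 19 (55.9%), against 12.8% and 11.7%, and both elements in 22 (64.7%), against 6.38% and 6.95%. With its first base within 50 bases of the start site, TTTGAA occurred in 23 of the 34 (67.6%), against 3.9% and 4.94%. In 77 promoters of 68 other mitotic genes, described further on, TTTGAA occurred in 48.1%, CCAAT in 64.9% and TTTGAA within 50 bases of the start in 37.7%. These are matches of letters, not measured binding sites. To show the element in its place, 20 bases around TTTGAA (capitals) are given for 1 gene in each of 7 roles, the one with the highest mean tumour level relative to the control among those whose match lies within 50 bases of the start site with all 20 bases inside the promoter, on the strand that reads TTTGAA. Bub1b, a checkpoint gene with a larger difference than Ttk, has its match too near the promoter's end for such a window:
Aurka: gagaaccTTTGAAttgtaac
Ttk: aaacacgTTTGAAatttccc
Cenpa: gtgatttTTTGAActgctgg
Hmmr: aggtaaaTTTGAAttcaggc
Anln: ttcaaatTTTGAAcggccgt
Ube2c: gcccgcgTTTGAAttgcaac
Top2a: agtttcaTTTGAAcctttat
The matches lay on the gene's own strand in Aurka, Cenpa, Hmmr and Anln and on the opposite strand in Ttk, Ube2c and Top2a. The windows lie at chr2:172370526-172370545 (Aurka, − strand), chr9:83834689-83834708 (Ttk, −), chr5:30666895-30666914 (Cenpa, +), chr11:40733417-40733436 (Hmmr, −), chr9:22389166-22389185 (Anln, −), chr2:164769893-164769912 (Ube2c, −) and chr11:99024200-99024219 (Top2a, +).

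The whole promoters of Prc1 (1 of its 2 in RefSeq) and Spc25 are shown because they had the highest and the lowest mean tumour level relative to the control among the genes that hold both elements, with TTTGAA and CCAAT in capitals. Prc1 is at chr7:80294226-80294525 on the + strand and Spc25 at chr2:69206164-69206463 on the − strand, each written 5′ to 3′ on the gene's strand:
Prc1: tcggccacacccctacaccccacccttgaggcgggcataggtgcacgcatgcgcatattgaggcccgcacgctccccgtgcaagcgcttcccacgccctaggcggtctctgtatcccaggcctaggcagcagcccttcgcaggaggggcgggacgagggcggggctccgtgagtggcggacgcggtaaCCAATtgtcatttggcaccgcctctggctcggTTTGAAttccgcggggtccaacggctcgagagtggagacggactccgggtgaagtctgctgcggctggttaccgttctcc
Spc25: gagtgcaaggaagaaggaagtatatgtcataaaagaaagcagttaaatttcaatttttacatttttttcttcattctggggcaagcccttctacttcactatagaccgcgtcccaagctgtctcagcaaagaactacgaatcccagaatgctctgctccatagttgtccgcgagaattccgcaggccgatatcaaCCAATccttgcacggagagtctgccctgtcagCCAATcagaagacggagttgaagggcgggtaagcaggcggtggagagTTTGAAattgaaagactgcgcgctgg
Both promoters carry a CCAAT upstream of 1 TTTGAA, with 1 CCAAT in Prc1 and 2 in Spc25. Spc25 was the 1 gene of the 40 whose mean tumour level lay below the control, and it holds the same elements as Prc1. Over the 23 matched genes with TTTGAA the median log2 difference between the tumour-derived samples and the control was 0.76 (from −0.072 to 1.36), and over the 9 without it was 0.58 (from 0.12 to 1.09), so the ranges overlapped.

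A level here is the log2 of the processed signal after division by the array's 75th percentile, so that 0 marks that percentile and a difference of 1 is a doubling. From 61.8% to 65.3% of the 59305 spots of an array were well above background. Trp53 stood at 0.85 in the control and between −5.86 and −4.86 in the 4 tumour-derived samples, and Cdh1 at 0.066 and 0.26 with the hairpins against 4.39 to 4.58 in the other 3 samples. Whether the Trp53 probe lies in the deleted part was not checked, and the array checks neither the Apc nor the Pik3ca lesion. All samples are labelled female, but on the Pik3ca array Xist was not well above background while 4 genes of the Y chromosome (Uty, Kdm5d, Ddx3y, Eif2s3y) were, as on no other array, so the main comparison is also given without it. The control and both hairpins were on 1 slide, and Apc and Pik3ca on another. Gastric epithelial markers were well above background in 15 or 16 of 16 tested on each array, with a summed signal of 906 times the 75th percentile in the control and 586 to 821 in the others. 14 of the 16 were lower in the tumour-derived samples, 1 of them at an unadjusted p below 0.05, with a median difference of −0.48. Over all genes tested, 55.4% were higher. The largest drop of the 16 was −2.04 for Cdh1, the target of the hairpins, which was not lower in Apc or Pik3ca. The summed signal of 5 fibroblast markers was 0.0737 to 0.257 times that percentile, highest in Apc, and of 5 endothelial markers 0.0865 to 0.234, highest in the control. All 5 fibroblast markers had a higher mean in the tumour-derived samples, and only in Apc were all 5 well above background. Of the endothelial markers 3 were higher and 2 lower. The control's endothelial sum came mostly from Emcn, at −2.54 there. Emcn stood at −8.30 to −7.99 in the others, not well above background (−5.54 ± 0.23, adjusted p = 0.00788 in limma). The 6 leukocyte markers tested summed to 11.7 in the control and 16 to 21 in the others, mostly from Itgam and Cd68. In the tumour-derived samples 5 of the 6 were higher and 1 lower. Ptprc, which defines leukocytes, stood at −6.78 in the control, −4.86 and −4.75 under hairpins 1 and 2, −4.63 in Apc and −6.10 in Pik3ca. It was well above background with both hairpins and in Apc, but not in the control or Pik3ca. Of 3 erythroid markers 1 was tested, at 0.0637 to 0.0904. The part of these markers in the mitotic gene levels was not tested.

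The first comparison set the 4 tumour-derived samples against the control. Mitotic genes were higher in the tumour-derived samples: 39 of 40 had a positive mean difference, where 55.4% of all genes tested did, and the median difference was 0.71 (1.63-fold), against 0.065 over all genes. The differences ran from −0.072 (Spc25) to 1.36 (Anln), with 8 genes at least 2-fold higher (9.88% of all genes tested) and 0 at least 2-fold lower (6.98%). In 36 of 40 genes all 4 tumour-derived levels lay above the control, which held for 30.2% of all genes tested. In 30 of 40 the mean difference was larger than the whole range of the 4 tumour-derived levels. The share of all genes tested for which this held is not given here, so that count has no background beside it. No single gene passed the threshold: 0 of 40 had an adjusted p below 0.05 in limma with Benjamini-Hochberg adjustment over all genes (0.119% of genes tested passed), and 18 had an unadjusted p below 0.05, all 18 higher, 0 lower (6.84% of genes tested higher, 6.5% lower). The lowest adjusted p was 0.238, for Cenpa. With a lone control, an exact permutation test over the 5 samples cannot go below p = 0.2, and the control is assumed to vary like the tumour-derived samples. The 18 became 7 once slide was a term of the fit, where only the hairpin arrays bear on the control, 8 without hairpin 2 and 9 with arrays centred on their median. Without the Pik3ca array the median was 0.64 and 39 of 40 were still higher, 13 at an unadjusted p below 0.05. For these alternative fits the share of all genes below that p is not given here. In such bulk samples a larger share of dividing cells and more of each RNA per dividing cell cannot be told apart. All 4 tumour-derived samples differ from the control in Trp53 loss, in growth as a tumour and in a Cdh1 hairpin, Apc580D or Pik3caH1047R. The parts of these in the differences cannot be told apart either.

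**Figure D1:**
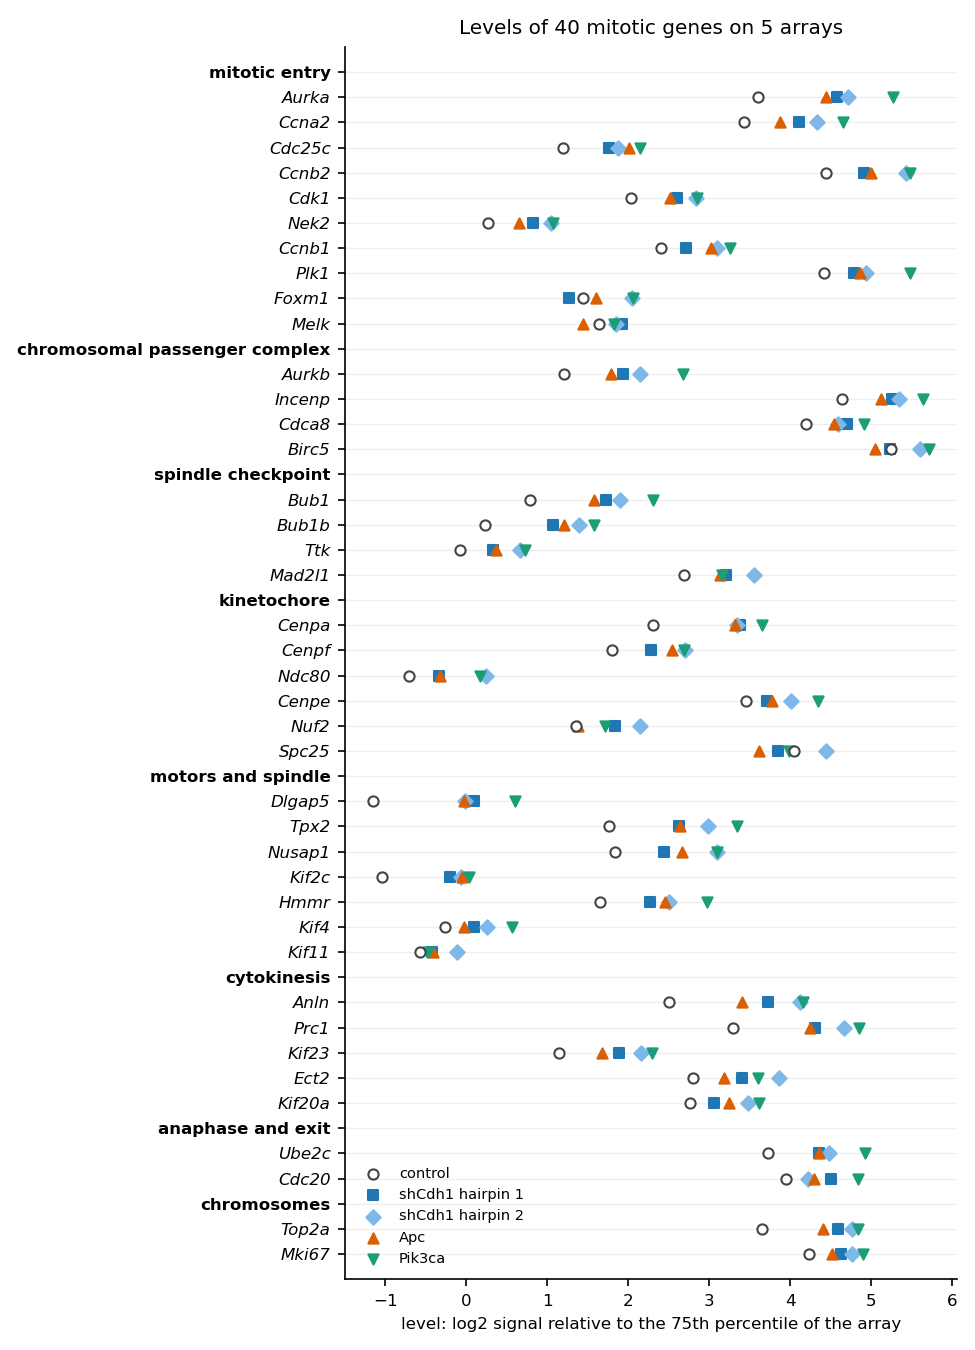
Level of each of the 40 mitotic genes (rows, grouped by role) on the 5 arrays, as log2 signal relative to the 75th percentile of the array; the open circle is the control and filled symbols are the 4 tumour-derived samples. In 36 of 40 rows the open circle lies to the left of all filled symbols; positions in different rows come from different probes and are not comparable.

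**Figure D2:**
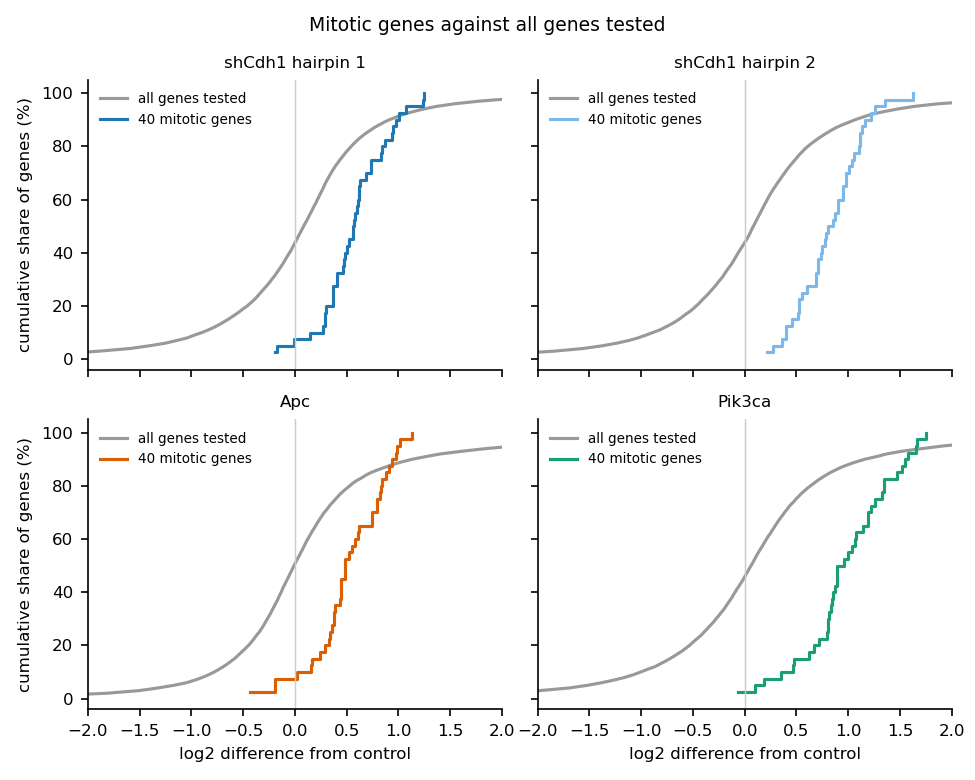
Cumulative share of genes (vertical, percent) by log2 difference from the control (horizontal, shown between −2 and 2) in each tumour-derived sample, for the 40 mitotic genes (coloured steps) and all genes tested (grey). The coloured medians lie at 0.56, 0.83, 0.49 and 0.93 for hairpins 1 and 2, Apc and Pik3ca, and the grey ones between −0.0093 and 0.085.

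Among the 10 regulators of mitotic entry, 10 were higher and 0 passed the test, with a median difference of 0.65. Aurka, the kinase that matures centrosomes and the poles of the spindle, had the largest difference of this group: it stood at 3.60 in the control, 4.58 and 4.71 under hairpins 1 and 2, 4.45 in Apc and 5.26 in Pik3ca. The control was the lowest and Pik3ca the highest, with no overlap, and the difference was 1.14 ± 0.37 (2.21-fold, adjusted p = 0.322 in limma). Cyclin A2 and the B-type cyclins, the partners of Cdk1, had differences of 0.81 ± 0.35 for Ccna2, 0.76 ± 0.32 for Ccnb2 and 0.61 ± 0.28 for Ccnb1. Cdk1 itself was at 2.03 in the control, 2.60 and 2.83 under hairpins 1 and 2, 2.51 in Apc and 2.85 in Pik3ca, a difference of 0.67 ± 0.24. The phosphatase Cdc25c, which activates Cdk1, was at 0.76 ± 0.24, the polo-like kinase Plk1 at 0.60 ± 0.34 and Nek2, a kinase that separates the centrosomes, at 0.63 ± 0.26. By the brightest probe of each of these 8 genes the control lay below all 4 tumour-derived samples. By a second, dimmer Cdk1 probe hairpin 1 (−2.04) lay below the control (−1.93) and the other 3 above it.

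Melk and Foxm1 differed from that pattern. Melk, a kinase of dividing and stem cells, stood at 1.64 in the control, 1.92 and 1.85 under hairpins 1 and 2, 1.44 in Apc and 1.83 in Pik3ca, so that Apc lay below the control and the other 3 above, with a mean difference of 0.12 ± 0.27. Foxm1, which encodes the transcription factor that activates many genes of this set, stood at 1.44 in the control, 1.27 and 2.04 under hairpins 1 and 2, 1.60 in Apc and 2.06 in Pik3ca. By this gene's brighter probe, hairpin 1 lay below the control and the other 3 above. Its difference of 0.30 ± 0.38 (adjusted p = 0.774) was smaller than its standard error. The gap between the hairpins, 0.77 by that probe, was the largest of the 40 genes. None of the 40 differed 2-fold between the hairpins, where 13.2% of all genes tested did. A second, dimmer Foxm1 probe stood at −2.62 in the control and −2.08 and −1.75 under hairpins 1 and 2. It stood at −2.64 in Apc and −2.52 in Pik3ca, so that there hairpin 1 lay above the control and Apc just below.

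The chromosomal passenger complex corrects wrong attachments of chromosomes and later directs cytokinesis. Its 4 genes had a median difference of 0.60, and 0 passed the test. Its kinase Aurkb stood at 1.20 in the control, 1.94 and 2.15 under hairpins 1 and 2, 1.78 in Apc and 2.68 in Pik3ca, a difference of 0.93 ± 0.39 (1.91-fold). The scaffold Incenp stood at 4.63 in the control, 5.25 and 5.34 under hairpins 1 and 2, 5.12 in Apc and 5.63 in Pik3ca. Cdca8, which encodes borealin, stood at 4.19 in the control, 4.70 and 4.59 under hairpins 1 and 2, 4.53 in Apc and 4.91 in Pik3ca. In these 3 genes the control was lowest and Pik3ca highest, with differences of 0.70 ± 0.27 for Incenp and 0.49 ± 0.24 for Cdca8. Birc5, which encodes survivin, stood at 5.24 in the control, 5.23 and 5.60 under hairpins 1 and 2, 5.04 in Apc and 5.71 in Pik3ca. There the control lay amid the tumour-derived samples, with Apc and hairpin 1 below it, and the difference was 0.16 ± 0.33. A second, dimmer Birc5 probe stood at 1.80 in the control and 1.84 and 2.18 under hairpins 1 and 2. It stood at 1.78 in Apc and 2.57 in Pik3ca, so that there Apc alone lay below the control.

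The 4 spindle checkpoint genes had a median difference of 0.84, with all 4 tumour-derived samples above the control in each and 0 past the threshold. Bub1, a checkpoint kinase of the kinetochore, stood at 0.78 in the control, 1.73 and 1.90 under hairpins 1 and 2, 1.57 in Apc and 2.31 in Pik3ca, a difference of 1.09 ± 0.34 (2.13-fold, adjusted p = 0.309). Bub1b, which encodes the checkpoint protein BubR1, stood at 0.23 in the control, 1.07 and 1.40 under hairpins 1 and 2, 1.21 in Apc and 1.58 in Pik3ca, a difference of 1.08 ± 0.27 (2.11-fold, adjusted p = 0.268). In both the control stood apart below and Pik3ca was highest. Ttk, the kinase that starts checkpoint signalling, stood at −0.074 in the control, 0.34 and 0.66 under hairpins 1 and 2, 0.36 in Apc and 0.72 in Pik3ca. Mad2l1, which encodes the anaphase inhibitor Mad2, stood at 2.68 in the control, 3.21 and 3.56 under hairpins 1 and 2, 3.13 in Apc and 3.15 in Pik3ca, with hairpin 2 the highest and the other 3 close together. The last 2 differences were 0.59 ± 0.26 and 0.58 ± 0.26.

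Of the 6 kinetochore genes 5 were higher and 1 was lower, with a median difference of 0.58 and 0 past the threshold. Cenpa, the histone H3 variant that marks centromeres, stood at 2.30 in the control, 3.38 and 3.34 under hairpins 1 and 2, 3.31 in Apc and 3.65 in Pik3ca. The 4 tumour-derived levels lay within 0.34 of each other and all were at least 1.01 above the control, a difference of 1.12 ± 0.24 (2.17-fold, unadjusted p = 0.00537, adjusted p = 0.238 in limma). Cenpf, a large protein of the outer kinetochore, was at 0.76 ± 0.26 and Cenpe, a kinesin that carries chromosomes to the spindle equator, at 0.51 ± 0.31. Ndc80, Nuf2 and Spc25 are subunits of the Ndc80 complex, the main microtubule anchor. Their differences were 0.64 ± 0.33 for Ndc80, 0.41 ± 0.34 for Nuf2 and −0.072 ± 0.36 for Spc25. Whether these genes differ from each other was not tested. Spc25 stood at 4.04 in the control, 3.85 and 4.44 under hairpins 1 and 2, 3.61 in Apc and 3.98 in Pik3ca, so that hairpin 2 alone lay above the control. A second Spc25 probe gave 0.24, the 1 sign that differed between probes of a gene. By that probe Apc alone lay below the control. The mean over both probes was 0.086.

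The 7 motor and spindle genes had the highest group median, 0.97, with all 4 tumour-derived samples above the control in all 7. In limma 5 of 7 were higher at an unadjusted p below 0.05 (6.84% of all genes tested) and 0 passed the threshold. Dlgap5, which encodes the spindle protein HURP, stood at −1.15 in the control, 0.094 and −0.014 under hairpins 1 and 2, −0.023 in Apc and 0.60 in Pik3ca. The hairpins and Apc lay close together below Pik3ca, and the difference was 1.32 ± 0.32 (2.49-fold, adjusted p = 0.262). Tpx2, which activates Aurora A on the spindle, was at 1.14 ± 0.35. The microtubule-binding proteins Nusap1 and Hmmr were at 0.99 ± 0.34 and 0.90 ± 0.33. Kif2c, a kinesin that takes microtubules apart, stood at −1.04 in the control, −0.20 and −0.066 under hairpins 1 and 2, −0.055 in Apc and 0.032 in Pik3ca. Its tumour SD of 0.10 (n = 4) was the smallest of the 40 genes beside a difference of 0.97 ± 0.21. The chromosome-bound kinesin Kif4 was at 0.49 ± 0.30. Kif11, the kinesin that pushes the spindle poles apart, stood at −0.57 in the control, −0.43 and −0.11 under hairpins 1 and 2, −0.41 in Apc and −0.47 in Pik3ca, with a difference of 0.22 ± 0.24.

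The 5 cytokinesis genes had a median of 0.85, again with the control lowest in 5 of 5 and 0 past the threshold. Anln, which encodes anillin of the contractile ring, stood at 2.50 in the control, 3.73 and 4.12 under hairpins 1 and 2, 3.40 in Apc and 4.16 in Pik3ca. Its difference of 1.36 ± 0.37 (2.56-fold, adjusted p = 0.28) was the largest of the 40 genes, although a second, dimmer Anln probe gave 0.93. Prc1, which bundles microtubules in the spindle midzone, stood at 3.30 in the control, 4.30 and 4.66 under hairpins 1 and 2, 4.24 in Apc and 4.85 in Pik3ca, a difference of 1.21 ± 0.32 (2.32-fold, adjusted p = 0.275), with a second probe at 1.26. Kif23 and Ect2 act together at the midzone, the first as a motor and the second as the activator of RhoA, and were at 0.85 ± 0.31 and 0.71 ± 0.32. Kif20a, a midzone kinesin, stood at 2.77 in the control, 3.06 and 3.48 under hairpins 1 and 2, 3.25 in Apc and 3.62 in Pik3ca, the smallest difference of the group at 0.58 ± 0.29.

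Ube2c and Cdc20 serve the anaphase-promoting complex, as a ubiquitin-conjugating enzyme and as the activator that the checkpoint holds back. Ube2c stood at 3.73 in the control, 4.35 and 4.47 under hairpins 1 and 2, 4.35 in Apc and 4.92 in Pik3ca, a difference of 0.80 ± 0.30. Cdc20 stood at 3.94 in the control, 4.50 and 4.21 under hairpins 1 and 2, 4.30 in Apc and 4.83 in Pik3ca, a difference of 0.52 ± 0.31, and was 1 of 5 genes in which hairpin 2 was below hairpin 1. Top2a, the topoisomerase that untangles sister chromatids, stood at 3.65 in the control, 4.59 and 4.77 under hairpins 1 and 2, 4.40 in Apc and 4.84 in Pik3ca, a difference of 1.00 ± 0.26 (1.99-fold, adjusted p = 0.273). Mki67, which encodes the Ki-67 antigen that coats mitotic chromosomes, stood at 4.23 in the control, 4.63 and 4.76 under hairpins 1 and 2, 4.52 in Apc and 4.90 in Pik3ca. Here too the control was lowest in all 4 genes, and the Mki67 difference was 0.47 ± 0.24 (1.39-fold).

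**Figure D3:**
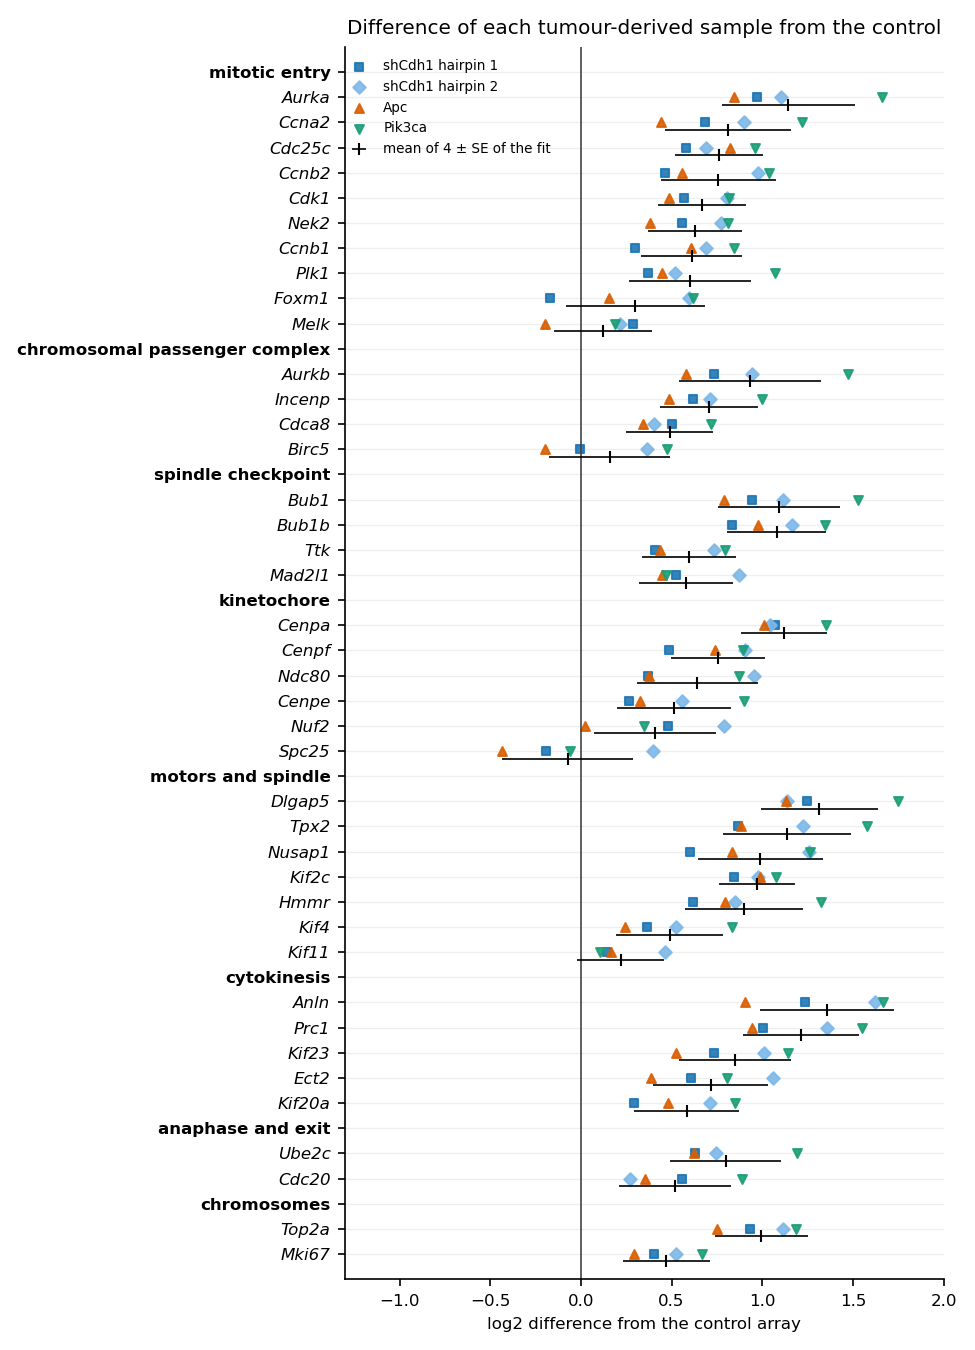
Log2 difference of each tumour-derived sample from the control (horizontal, coloured symbols) for the 40 mitotic genes (rows, by role), with the mean of the 4 and the standard error of the limma fit as a black tick and bar. Symbols of Spc25, Melk, Foxm1 and Birc5 lie on both sides of 0, and those of the other 36 genes lie to its right.

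Different probes of a gene gave nearly the same differences. The 40 genes had 63 probes, 20 genes with 1, 17 with 2 and 3 with 3, and all 63 were well above background on all 5 arrays. Each gene is represented above by its brightest probe. The 23 other probes all gave a positive difference, with a median of 0.72, and in 19 of 23 all 4 tumour-derived samples lay above the control. Their differences departed from that of the probe used by a median of 0.10 and by at most 0.48, for Cdk1, where the dimmer probe gave 0.18. In 20 of 23 the departure was below 0.25. Probes of a gene were hybridised with the same labelled RNA and are not replicates of a condition.

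**Figure D4:**
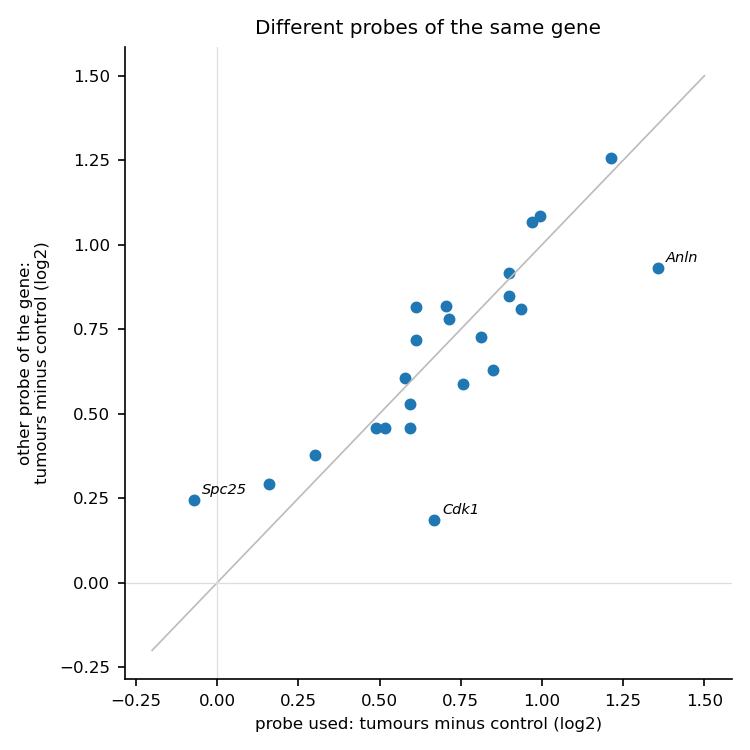
Mean log2 difference of the 4 tumour-derived samples from the control by the probe used (horizontal) and by each of the 23 other probes of the same gene (vertical), with a line of equality. Points lie along the line except Cdk1, Anln and Spc25, which depart by over 0.25.

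The tumour-derived samples were then compared with each other. Pik3ca had the highest level in 32 of 40 mitotic genes, hairpin 2 in 7 and hairpin 1 in 1, while Apc and the control were highest in none, against 21.3% of all genes tested with their highest level in Pik3ca. With other scalings or the mean of all probes, the count for Pik3ca ran from 24 (quantile normalization) to 33 (median centring). The control was lowest in 36 of 40 (30.2% of all genes). The median difference from the control was 0.93 in Pik3ca (1.9-fold), 0.83 with hairpin 2 (1.77-fold), 0.56 with hairpin 1 (1.48-fold) and 0.49 in Apc (1.4-fold). At least 2-fold above the control were 19, 12, 4 and 2 of the 40 genes, in the same order, against 12.1%, 11%, 8.69% and 11.3% of all genes tested. Pik3ca was above Apc in 39 of 40 genes by a median of 0.45, where 54% of all genes were. Hairpin 2 was above hairpin 1 in 35 of 40 by a median of 0.26, where 49.2% of all genes were, so samples of 1 group also differed in 1 direction over most of the set. No gene of the 40 differed 2-fold between any pair of tumour-derived samples, where 11.6% to 14.9% of all genes tested did, depending on the pair. Which sample was lowest depended on the scaling: Apc had the lowest median as reported, with arrays centred on their median (0.27 against 0.45 for hairpin 1) and in the authors' deposited table. With quantile normalization (0.48 against 0.56 in Apc) and normexp (0.52 against 0.53) hairpin 1 had the lowest. Pik3ca had the highest median in all 5 of these scalings, by the least with quantile normalization (0.82 against 0.81 for hairpin 2). By role, spindle genes had the highest median in Apc (0.83) and Pik3ca (1.26), and cytokinesis genes with hairpins 1 (0.73) and 2 (1.06).

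In the fit with 1 mean per group, whose spread comes from the hairpin pair alone, 0 of 40 genes passed in any of 6 comparisons (limma, Benjamini-Hochberg adjustment over all genes, where 0% of genes tested passed). Against the control, 40 of 40 were higher in shCdh1 (n = 2; 56.6% of all genes) with a median of 0.69, 9 of them at an unadjusted p below 0.05 (5.09% of all genes, higher). In Apc (n = 1) 37 of 40 were higher (49.3%) with a median of 0.49, 2 of them at an unadjusted p below 0.05 (5.84% of all genes, higher). In Pik3ca (n = 1) 39 of 40 were higher (54.3%) with a median of 0.93, 16 of them at an unadjusted p below 0.05 (6.26% of all genes, higher). These 3 comparisons share the control array, and Apc and Pik3ca were on another slide than the control. Against the mean of the other tumour genotypes, the median was −0.33 in Apc with 39 of 40 lower (55.9% of all genes), 0.37 in Pik3ca with 38 of 40 higher (51.3%) and −0.087 in shCdh1 with 27 of 40 lower (45.7%). The shCdh1 median had no stable direction: it was 0.058 without hairpin 1 and −0.19 without hairpin 2, and ran from −0.13 (quantile normalization) to −0.045 (median centring) over the other alternatives. The Apc median was −0.16 with quantile normalization. Both hairpins were on 1 slide and Apc and Pik3ca on the other. In the shCdh1 comparison slide and genotype therefore cannot be told apart. In these 3 comparisons 0 of 40 genes had an unadjusted p below 0.05 (6.03%, 5.73% and 6.03% of all genes), and the lowest adjusted p was 0.899. Beside these medians stands the 0.26 between the hairpins. Aurkb had the widest range over the tumour-derived samples (0.89), with 0.76 ± 0.28 in Pik3ca and −0.58 ± 0.28 in Apc against the mean of the other tumour genotypes.

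Other genes of the pathway were set beside the 40 in the comparison of all 4 tumour-derived samples with the control. Their lists were chosen by name, also with earlier results of these data known. Of 79 other mitotic genes, 69 were higher (87.3%, against 55.4% of all genes tested) and 10 lower, with a median of 0.52. In limma 20 were higher at an unadjusted p below 0.05 (25.3%, against 6.84% of all genes tested). At that p 1 was lower (6.5% of all genes tested), and 0 passed the threshold (0.119% of all genes tested). Their median was 0.43 and 0.81 with hairpins 1 and 2, 0.37 in Apc and 0.57 in Pik3ca, so that here hairpin 2 and not Pik3ca was the highest. By group it was 0.69 over 12 genes of condensin, cohesin and separation, 0.69 over 22 of motors, spindle and cytokinesis, 0.46 over 11 kinases, phosphatases and adaptors, and 0.43 over 34 of kinetochore and checkpoint. Cdc25b, a phosphatase that activates Cdk1, was at 1.32 ± 0.37, the condensin subunit Smc4 at 1.25 ± 0.31 and the spindle protein Ckap2l at 1.14 ± 0.39. At the other end Psrc1, a spindle protein known to be induced by p53, stood at 3.65 in the control, 0.96 and 2.16 under hairpins 1 and 2, 1.13 in Apc and 1.17 in Pik3ca. Its level was lower in all 4 tumour-derived samples, with a difference of −2.30 ± 0.51 (unadjusted p = 0.00668, adjusted p = 0.244). Gtse1, a microtubule-binding protein likewise known as a p53 target, was at −0.75 ± 0.35, also lower in all 4, and the centromere protein gene Cenpm at −0.40 ± 0.37.

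The lists around mitosis lay closer to the median of all genes. The 17 genes of the anaphase-promoting complex and its partners had a median of 0.17 with 14 higher, led by Cdc26 (0.80 ± 0.32) and Ube2s (0.77 ± 0.29). The 22 transcription factors and partners of cell cycle genes, which include the MuvB, E2F and NF-Y families, had a median of 0.062 with 13 higher, from −0.78 ± 0.24 for Nfyc to 0.74 ± 0.30 for Nfya, both NF-Y subunits. The 38 DNA replication genes tested had a median of 0.27 with 31 higher. Their median was 0.39 and 0.41 with hairpins 1 and 2, 0.35 in Pik3ca and −0.038 in Apc, where the 40 mitotic genes were at 0.49. The shares higher in these 3 lists were 82.4%, 59.1% and 81.6%, against 55.4% of all genes tested. In them 0 genes passed in limma (0.119% of all genes tested). At an unadjusted p below 0.05 in limma 1, 1 and 1 genes were higher (5.88%, 4.55% and 2.63%, against 6.84% of all genes tested). At that p 0, 1 and 0 genes were lower (6.5% of all genes tested). Of 13 Cdk inhibitors, G1 cyclins and their kinases 1 passed: Cdkn2a, which encodes p16Ink4a and p19Arf, rose by 3.80 ± 0.23 (adjusted p = 0.021 in limma, higher in 4 of 4 samples). No gene at all passed with slide as a block or without hairpin 1, hairpin 2 or Pik3ca. Cdkn1a was at 4.03 in the control, 2.08 and 1.82 under hairpins 1 and 2, 1.31 in Apc and 2.65 in Pik3ca, a difference of −2.07 ± 0.52 (adjusted p = 0.268).

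**Figure D5:**
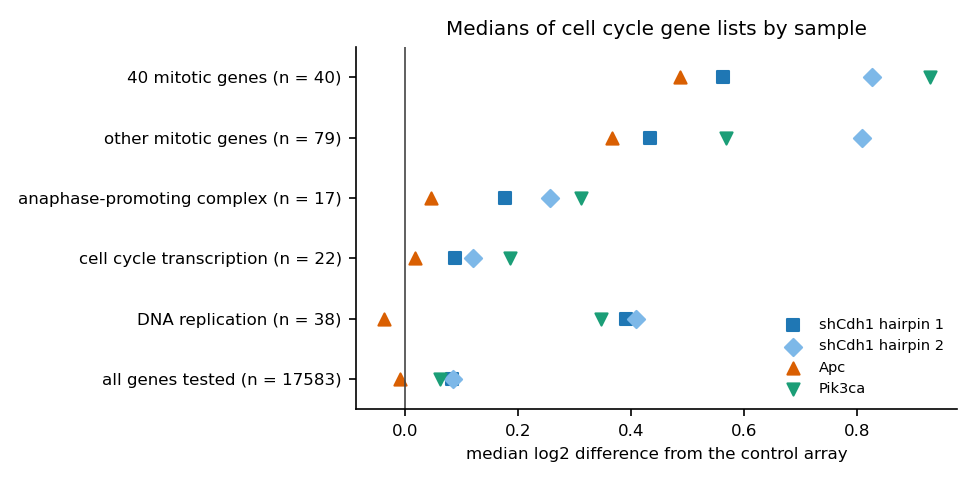
Median log2 difference from the control (horizontal) over each list of cell cycle genes (rows, with the number of genes tested) in each tumour-derived sample (symbols). The 40 mitotic genes lie between 0.49 and 0.93, the DNA replication genes between −0.038 and 0.41, and all genes tested between −0.0093 and 0.085.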

How the data were processed

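Column-purified total RNA was amplified and Cy3-labelled, per the labels' protocols. Agilent Feature Extraction 11.0.1.1 read the spots, per the submitters' processing notes. Per the file headers, the deposited processed signal is an intensity after background subtraction and spatial detrending, with no scaling between arrays. The authors also deposited log2 values. Over 53335 probes their differences from the control matched those of the scanner signals with a slope of 1, so direction and scale are settled and the baseline stays unknown. The medians of these values were −0.0572 (control), 0.0738 and 0.0312 (hairpins 1 and 2), −0.0796 (Apc) and 0.0225 (Pik3ca).

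Here log2 signal was reduced by the array's 75th percentile over 59305 non-control spots. Outlier-flagged spots (78 to 114 per array) were left out, no spot was saturated, and spots of a probe were averaged. 32 of 56605 probes lacked a usable value on some array and were dropped. Probes were named by accession through RefSeq's GRCm38.p6 gene table, used for names only: 34566 matched 1 symbol and 22039 none or several. Each gene was its brightest probe. Genes with a probe well above background on any array entered the fit by limma 3.58.1 (R 4.3.3, two-sided, Benjamini-Hochberg over 17583 genes, threshold 0.05), with 3 residual degrees of freedom for tumours against control and 1 for the genotype fit. Errors after ± are standard errors unless called SD. The fit was tested on simulated data. The number of arrays limits the precision. All members are named. Each role's highest and lowest differences, all members of groups of up to 4 and those on both sides of the control have a level for every sample. The per-sample levels of Cdk1 and Kif2c, and the rule for the 20-base windows, were chosen after the values were seen, and 1 such window is not reported here. From the other lists up to 3 genes per direction are named. Members and lists were chosen with earlier results of these data known. Alternatives were other scalings, background correction, filters, probes, slide and left-out arrays. Slide could be a block only in the comparison of all tumours with the control.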

Additional observations from a re-analysis of the deposited data

Results flagged for a closer look

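In 2 of the 40 genes every sample of 1 genotype lay above the control and every sample of another below it, a difference that was not tested. By the probes used, Spc25 is not among them, since the hairpins lay on both sides of the control there. By their second probes, Spc25 and Foxm1 had both hairpins and Pik3ca above the control and Apc below it. Melk was above the control in shCdh1 and Pik3ca and below it in Apc, with a gap of 0.417 between them on the log2 scale. Birc5 was above the control in Pik3ca and below it in Apc, with a gap of 0.671. In none of the 40 genes did 1 of the 4 tumour-derived samples stand apart from the other 3 by Dixon's criterion. For this count and for the 2 genes above, the share of all genes tested is not given here.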

How the results depend on the processing

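The median difference of the 40 genes between the tumour-derived samples and the control stayed between 0.57 (arrays centred on their median) and 0.75 (without Apc) over 13 alternatives, with 38 to 40 genes higher and 0 past the threshold in each. Centring arrays on their median lowered all genes by a median of 0.14, so that relative to all genes the median was 0.64 with both scalings. It also moved the Apc median against the control from 0.49 to 0.27, and the number of the 40 with an unadjusted p below 0.05 from 18 to 9. That number was 7 with slide as a block and 8 to 16 with 1 tumour-derived array left out. Over all genes 21 passed as reported, 48 with normexp, 49 with dim signals raised to a floor, 7 when a gene had to be well above background on every array (fewer genes tested), 0 with slide as a block and 0 to 19 with 1 array left out (0 without hairpin 1, hairpin 2 or Pik3ca). For Apc against the other tumours 9 passed with normexp against 0 as reported, none of them among the 40. The cause of these changes was not tested. For the alternatives the share of all genes at an unadjusted p below 0.05 is not given here. Melk turned to −0.020 with median centring, and Spc25 to 0.086 with the mean of all probes, 0.10 with slide as a block and 0.049 without Apc, in a range of −0.23 to 0.049 over the left-out arrays. The other 38 genes kept their direction in every alternative. Without a hairpin the genotype fit has no residual degrees of freedom, so it gave values and no test. No paired analysis was possible because the groups share fewer than 2 replicate numbers.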
